A study of Mus musculus with 2 samples.

Results

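Red cells were present in both single-cell libraries of the mouse lacrimal gland, the gland that makes the watery part of tears. The barcodes were chosen by their globin share alone: alpha and beta globin genes (symbols starting with Hba- or Hbb-) had to make up at least 50% of the raw UMIs, with no minimum on detected genes. A UMI is a tag that marks 1 captured RNA molecule. By this rule 496 of 1124 barcodes were red cell barcodes. They were 203 of 437 in the E16 library (46.5%, exact 95% interval 41.7 to 51.3) and 293 of 687 in the P4 library (42.6%, 38.9 to 46.4). E16 stands for embryonic day 16 and P4 for postnatal day 4. Both libraries came from wild-type CD1 mice, an outbred stock, with no treatment. Glands were dissected and pooled, digested with Liberase TM and DNase, filtered and barcoded in droplets, and how many animals went into a pool is not stated in the labels. There was 1 library per stage. Differences between stages therefore have no replicate check, no p-value is given, and every interval covers counting error only. Stage also cannot be told apart from any other difference between the pools or runs. The libraries shared 0 barcodes.

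Red cells lose their nucleus at the end of differentiation and leave the erythroblast stage as reticulocytes, which still hold messenger RNA and keep making haemoglobin for a short time. During that time they clear mitochondria, ribosomes and surplus membrane, and the RNA declines with them. Embryonic globin chains belong to the first, yolk sac derived red cells, while fetal liver, spleen and bone marrow make cells with adult alpha and beta chains.

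The globin share separated red cell barcodes from the rest with no barcode near the threshold. The lowest member of the E16 library had 77.1% globin UMIs and the highest barcode outside it 9.38%. In the P4 library these values were 81.6% and 1.17%. At least 90% of the UMIs were globin in 199 of the 203 E16 members and in 290 of the 293 P4 members. These values come from the rule itself and are given as a description.

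**Figure D1:**
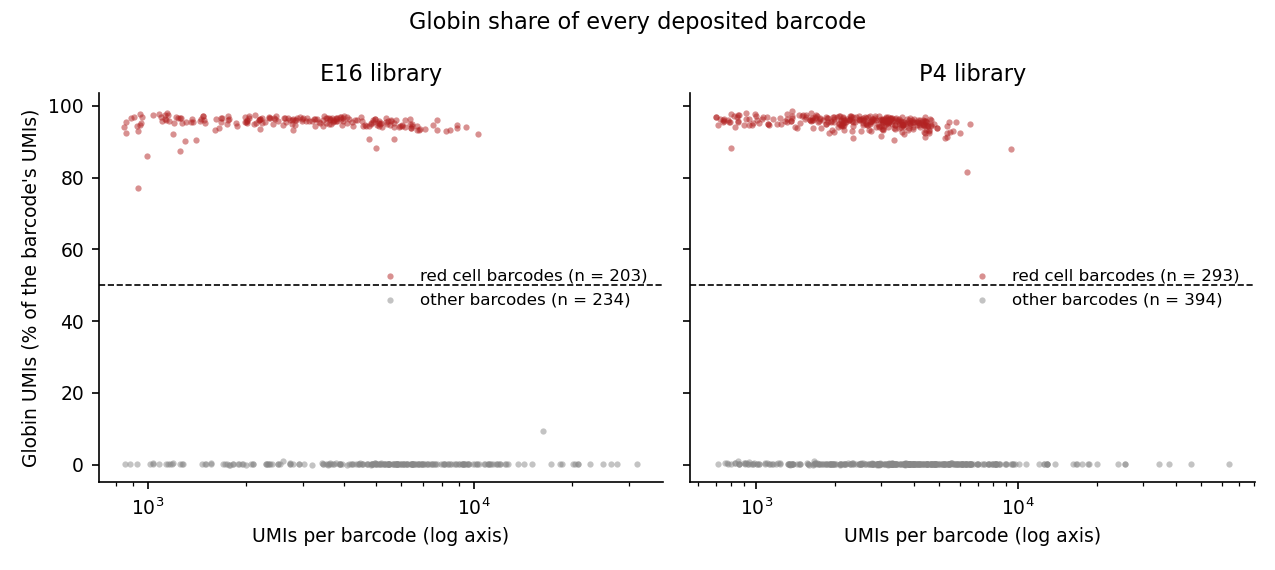
Globin UMIs as a percentage of each barcode's UMIs (vertical axis) against UMIs per barcode (horizontal log axis), with 1 point per deposited barcode and 1 panel per library. Red points are the 203 E16 and 293 P4 red cell barcodes, grey points all others, and the dashed line is the 50% threshold, with no barcode between 9.38% and 77.1% in E16 or between 1.17% and 81.6% in P4.

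Red cell barcodes were simple libraries. They held a median of 3072 UMIs in E16 (range 848 to 10322) and 2689 in P4 (702 to 9433), and a median of 96 and 83 detected genes. The other barcodes held a median of 5562 and 3692.5 UMIs and 2236.5 and 1518 genes. A minimum of 200 detected genes, a usual filter, would have kept 25 of the 203 E16 members and 12 of the 293 P4 members, and every barcode under 200 genes was a red cell barcode. The transcripts other than globins made up 4.86% of the members' UMIs in E16 (33962 of 698307) and 5.01% in P4 (40411 of 805980). All levels below are UMIs per 1000000 of these non-globin UMIs (CPM), summed over the members of a library. A single UMI was worth 29.4 CPM in E16 and 24.7 CPM in P4. Levels are shares, so a gene with a larger share leaves less for the others.

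The globin genes themselves were of the adult kind at both stages. Hbb-bs, an adult beta globin gene, gave 304671 UMIs in E16 and 373147 in P4. Hba-a1, an adult alpha globin gene, gave 297649 and 349400. The embryonic genes Hbb-y and Hba-x had 0 UMIs in both libraries, and Hbb-bh1 had 1 UMI in E16 and 0 in P4. Hbb-bh2, a further gene of the beta globin cluster, had 0 UMIs in both. For a count of 0, the exact interval reached up to 0.000555% of the globin UMIs in E16 and 0.000482% in P4. Alpha chains made up 45.2% of globin UMIs in E16 and 46.1% in P4. Hba-a2 held only 2613 and 3246 UMIs, but its transcript matched that of Hba-a1 at 537 of 538 aligned positions, so counts of these copies cannot be assigned with certainty. The theta-like globin genes Hbq1a and Hbq1b, which the rule did not use, had 9 and 12 UMIs in E16 and 59 and 14 in P4. Of the 59, 40 sat in 1 barcode. Both genes count as non-globin below, and Hbq1a is among the genes counted as higher in P4 and above the other barcodes.

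The share of the second adult beta gene, Hbb-bt, differed between the libraries. Hbb-bt made up 16.3% of the Hbb-bs and Hbb-bt UMIs in E16 (59411 of 364082, interval 16.2 to 16.4) and 9.63% in P4 (39776 of 412923, 9.54 to 9.72). Per barcode the median was 15.6% in E16 (range 1.21% to 26.1%) and 9.03% in P4 (0.394% to 23.0%), so the ranges overlapped. The share also differed with the depth of the barcode. In E16 it was 7.98% under 1500 UMIs, 11.4% from 1500 to 3000, 16.8% from 3000 to 4500 and 19.0% from 4500 up. In P4 it was 5.08%, 7.73%, 10.4% and 12.9% in the same bands. It was thus higher in E16 within each of the 4 bands. The transcripts of Hbb-bs and Hbb-bt were identical at 575 of 618 aligned positions (93.0%). Over the last 150 aligned positions, nearest the 3' end, they were identical at 115 (76.7%). Hba-a1 and Hba-a2 were identical at 149 of their last 150. The labels do not say which beta globin haplotypes the CD1 mice carried, and the counts are those assigned to the genes of the reference strain.

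**Figure D2:**
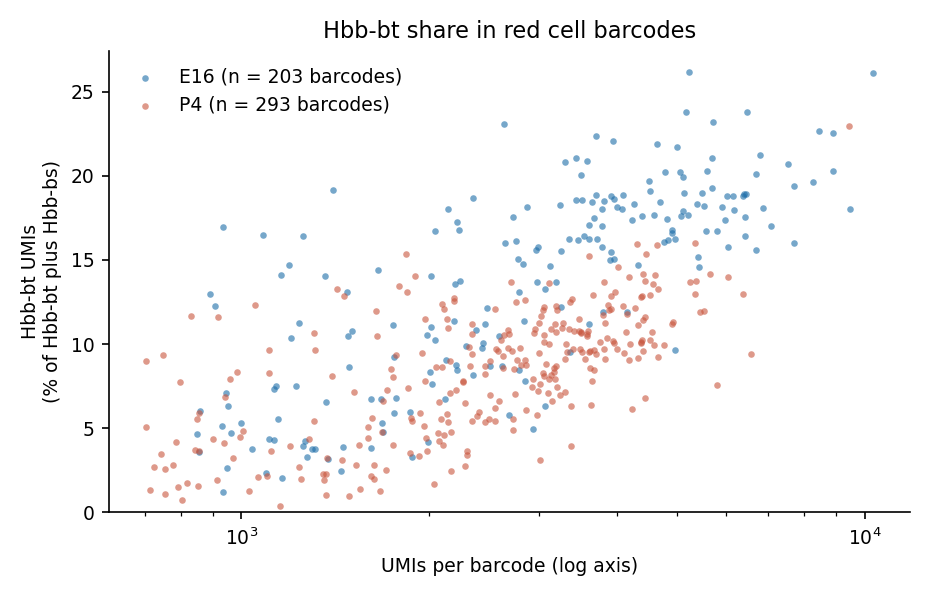
Hbb-bt UMIs as a percentage of Hbb-bt plus Hbb-bs UMIs (vertical axis) against UMIs per barcode (horizontal log axis), with 1 point for each of the 203 E16 and 293 P4 red cell barcodes. The share was higher in deeper barcodes of both libraries, and pooled over barcodes it was 16.3% in E16 and 9.63% in P4.

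The 250 bases before the RefSeq start of the genes Alas2, Hbb-bs and Hbb-bt (GRCm38.p6) are shown because Alas2 encodes the erythroid enzyme that opens haem synthesis and the balance of the beta globin pair differed between libraries. Capitals mark matches on either strand to GATA motifs (AGATAA or AGATAG or TGATAA or TGATAG), the letters bound by the erythroid factor GATA1, or to CACACCC or CCGCCCC, letters of the kind bound by KLF factors. The Alas2 window lies at chrX:150547167-150547416 on the plus strand. The Hbb-bs window lies at chr7:103827929-103828178 and the Hbb-bt window at chr7:103813924-103814173, both on the minus strand.
Alas2: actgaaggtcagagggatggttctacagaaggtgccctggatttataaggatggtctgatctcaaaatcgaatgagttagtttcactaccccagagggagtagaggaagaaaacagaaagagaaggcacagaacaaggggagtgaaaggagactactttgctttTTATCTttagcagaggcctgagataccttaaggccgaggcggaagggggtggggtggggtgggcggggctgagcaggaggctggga
Hbb-bs: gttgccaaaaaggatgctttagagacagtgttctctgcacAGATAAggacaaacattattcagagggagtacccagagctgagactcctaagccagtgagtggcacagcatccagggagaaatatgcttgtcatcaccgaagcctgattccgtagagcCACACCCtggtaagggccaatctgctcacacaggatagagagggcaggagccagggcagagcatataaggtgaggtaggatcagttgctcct
Hbb-bt: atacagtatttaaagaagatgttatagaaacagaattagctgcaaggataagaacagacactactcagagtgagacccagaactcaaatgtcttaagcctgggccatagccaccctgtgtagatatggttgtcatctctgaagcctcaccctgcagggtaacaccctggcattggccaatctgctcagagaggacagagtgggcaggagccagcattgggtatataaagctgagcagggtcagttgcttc
Alas2 held AGATAA on the opposite strand, 86 to 81 bases before the start. Hbb-bs held AGATAA 210 to 205 bases before its start and CACACCC 92 to 86 bases before it. Hbb-bt held none of these letters in its window, which says nothing about binding of a factor. The same search was run over the 250 bases before the start in 32851 RefSeq windows. Of these, 26.5% held a GATA motif, 6.93% CACACCC and 21.0% CCGCCCC.

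Apart from globins, red cell barcodes held a short list of transcripts at high level. Ftl1, the ferritin light chain that stores iron, reached 70137 CPM in the E16 members and 68100 CPM in those of P4. Alas2 (chrX:150547375-150570638) stood at 35775 and 45062 CPM. Mkrn1, a ubiquitin ligase with zinc fingers (chr6:39397804-39420462), stood at 22967 and 27987 CPM. These levels lay far above those of the other barcodes of the same library, where Alas2 had 15.02 and 24.18 CPM and Mkrn1 77.0 and 88.8 CPM. Bnip3l, a receptor for the removal of mitochondria, had 7921 and 9997 CPM against 212 and 202 CPM. The antizyme gene Oaz1, a brake on polyamine synthesis, had 13162 and 16456 CPM, and the peroxidase gene Prdx2 13633 and 14353 CPM.

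Of the red cell markers other than globins, Alas2 and Mkrn1 were found in most members and Bpgm in fewer. With each barcode thinned to 1009 UMIs (13 E16 and 30 P4 members were shallower and left out), Alas2 was detected in 66.3% of E16 and 85.2% of P4 members. In the other barcodes it was detected in 2.16% of each library. Mkrn1 was detected in 55.8% and 60.8% of members against 7.36% and 8.92% of other barcodes. Bpgm was detected in 23.7% and 45.6% of members against 2.16% and 2.97%. Without thinning the shares of members were 84.7% and 93.9% for Alas2, 72.9% and 74.1% for Mkrn1 and 39.4% and 60.8% for Bpgm.

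Of the non-globin genes with at least 30 UMIs in the members, 69 of 136 in E16 (50.7%) and 85 of 180 in P4 (47.2%) were at least 3-fold above the other barcodes of the library. Since the rule chose the members from the same counts, this is a description. The lists shared 62 genes, 89.9% of the E16 list and 72.9% of the P4 list, and 92 genes were on either. The 69 genes of the E16 list held 39.3% of the members' non-globin UMIs in E16, against 3.23% in the other barcodes. The 85 genes of the P4 list held 44.1% in P4, against 3.65%. Ribosomal protein genes held 10.3% and 7.32% in members against 17.1% and 14.6% in the other barcodes. Malat1, a nuclear RNA, had 66 and 74 UMIs in members, or 1943 and 1831 CPM against 4629 and 5678 CPM in the other barcodes.

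Transcripts of erythroid transcription factors and globin regulators were scarce. Of 23 such genes none reached 30 UMIs over both libraries. The 23 genes together had 36 UMIs in E16 and 44 in P4, or 1060 and 1089 CPM, against 1306 and 977 CPM in the other barcodes. Bcl11a, Myb and Gfi1b, regulators of blood cell differentiation, had 0 UMIs in members of both libraries.

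**Figure D3:**
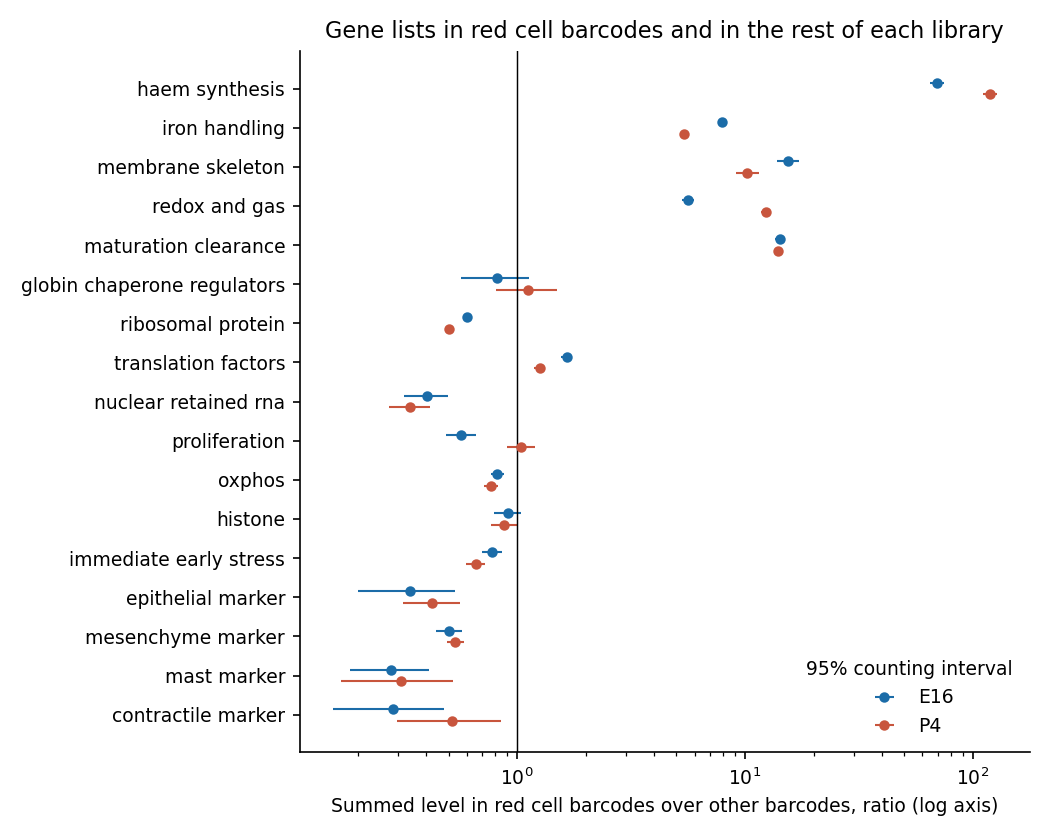
Ratio of the summed CPM of each gene list in red cell barcodes to that in the other barcodes of the same library (horizontal log axis), with E16 in blue, P4 in orange and bars for the exact 95% counting interval. Lists with at least 10 UMIs in both libraries are shown. Haem synthesis genes stood 69.4-fold and 118-fold above the other barcodes, ribosomal protein genes at 0.602 and 0.502 of them.

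Between stages, most transcripts differed by less than 2-fold. Among 306 non-globin genes with at least 30 UMIs over both sets of members, 40 were higher in P4 by 2-fold or more (13.1%), and 35 were higher in E16 by as much (11.4%). The log2 ratio, P4 over E16, had a median of -0.04. In the other barcodes, the same 306 genes gave 20 (6.54%) and 14 (4.58%), with a median of -0.15. Members held 33962 and 40411 non-globin UMIs and the other barcodes 1531753 and 1902623, so counting error is larger in the members. With each gene's leading barcode in each library left out, the counts were 37 and 30, and 31 and 27 genes stayed on their list. Among the 92 genes above the other barcodes, 16 were higher in P4 and 13 in E16, and 11 and 8 without the leading barcodes. The counts of list genes below are to be read against the shares of all 306 genes, 13.1% higher in P4 and 11.4% in E16.

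Ranges in parentheses after a ratio are exact 95% counting intervals. The libraries differed in how deep their members were. There were 59 E16 members with at least 4500 UMIs but 24 in P4. The composition also differed with depth, so stage ratios are given beside those for the 102 E16 and 214 P4 members with 1500 to 4500 UMIs (11908 and 28955 non-globin UMIs) where these move the value.

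**Figure D4:**
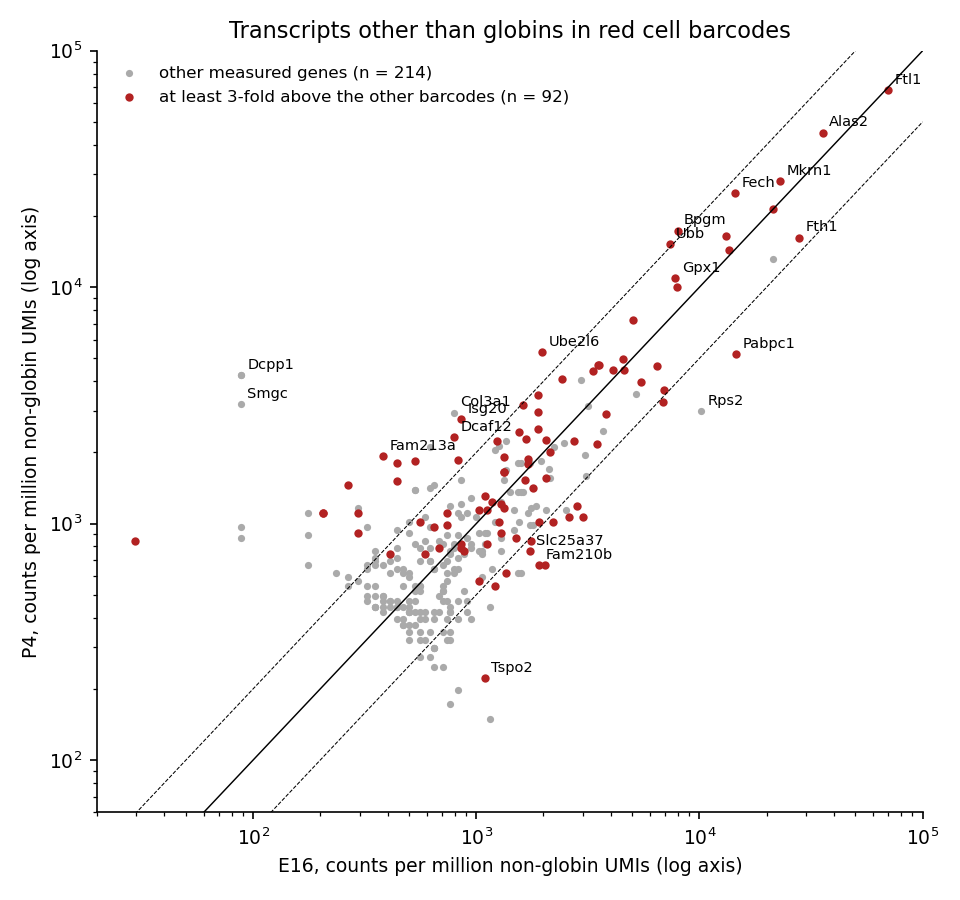
Level of each of 306 non-globin genes in red cell barcodes of E16 (horizontal) and P4 (vertical), in CPM of non-globin UMIs on log axes. Red points are the 92 genes at least 3-fold above the other barcodes in either library, the solid line marks equal levels and the dashed lines 2-fold differences. A gene with 0 UMIs is drawn at 3 UMIs. Bpgm and Ube2l6 lie above the upper dashed line, and Pabpc1 and Rps2 below the lower.

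Haem synthesis was carried by few transcripts, and its last enzyme was higher in P4. Fech, ferrochelatase, which inserts iron into the ring, had 490 UMIs (14428 CPM) in E16 and 1013 UMIs (25067 CPM) in P4, a ratio of 1.74 (1.56 to 1.94). The ratio was 1.77 (1.51 to 2.10) at 1500 to 4500 UMIs. Alas2 had 1215 and 1821 UMIs, a ratio of 1.26 (1.17 to 1.36). Both stood higher in P4 by less than the 2-fold used for a call. Fam210b, a mitochondrial protein that helps iron reach the haem enzymes, went the other way, with 65 UMIs (1914 CPM) in E16 members and 27 (668 CPM) in P4 members. It was 2.86-fold higher in E16 (1.80 to 4.67). It was 1.54-fold higher at 1500 to 4500 UMIs, with an interval of 0.680 to 3.33. Of the 13 haem synthesis genes 4 could be compared, with 0 called higher in P4 and 1 in E16. Their median log2 ratio was -0.24, while their summed level was 1.34-fold higher in P4 (1.26 to 1.42), so median and sum differ in sign. The median was 0.12 at 1500 to 4500 UMIs. Alas2 and Fech gave 1215 and 490 of the list's 1819 E16 UMIs.

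The iron genes together reached 102703 CPM in E16 members and 88738 CPM in P4 members, and the P4 sum was 0.864 of the E16 sum (0.824 to 0.906). Fth1, the ferritin heavy chain (chr19:9980598-9985098), had 950 UMIs (27972 CPM) in E16 and 654 (16184 CPM) in P4. The E16 level was 1.73-fold higher (1.56 to 1.91). The ratio was 1.21 (1.04 to 1.41) at 1500 to 4500 UMIs. In the other barcodes Fth1 stood at 3886 and 4164 CPM. Ftl1 differed little, with a P4 over E16 ratio of 0.97 (0.92 to 1.03). Slc25a37, mitoferrin, which brings iron into mitochondria, had 59 and 31 UMIs, 2.27-fold higher in E16 (1.44 to 3.62), and 2.54-fold at 1500 to 4500 UMIs. Of 15 iron genes 5 could be compared, with 0 higher in P4 and 1 in E16, and a median log2 ratio of -0.04. Tfr2 had 0 UMIs in both libraries. Ferritin genes have near-identical copies, so their counts depend on how reads with several matches were treated.

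Genes of the red cell membrane and its skeleton were low. Of 26 genes 6 could be compared, with 0 higher in P4 and 1 in E16, and a median log2 ratio of -0.63. Their summed level was 12514 CPM in E16 and 8636 CPM in P4. Their ratio was 0.690 (0.597 to 0.797). At 1500 to 4500 UMIs the sums were 8230 and 7736 CPM, a ratio of 0.940 (0.738 to 1.20). Tspo2, an erythroid protein that binds cholesterol, had 37 UMIs in 29 E16 members and 9 UMIs in 8 P4 members, 4.89-fold higher in E16 (2.32 to 11.5). It was 6.32-fold higher at 1500 to 4500 UMIs. Epb41, protein 4.1 of the skeleton, had 51 and 35 UMIs, 1.73-fold higher in E16 (1.11 to 2.75). Cd24a, a surface protein, had 185 and 160 UMIs, a P4 over E16 ratio of 0.73 (0.58 to 0.90). Mpp1, a palmitoylated membrane protein, had 29 and 32 UMIs, a ratio of 0.93 (0.54 to 1.59), and 1 and 20 UMIs at 1500 to 4500 UMIs. Slc4a1, the anion exchanger band 3, had 11 and 26 UMIs, a ratio of 1.99 (0.95 to 4.45).

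Of the genes for gas transport and protection from oxidants, Bpgm stood out by its size. Bpgm makes bisphosphoglycerate, which lowers the oxygen affinity of haemoglobin (chr6:34476207-34505613). It had 271 UMIs (7980 CPM) in 80 E16 members and 701 UMIs (17347 CPM) in 178 P4 members, 2.17-fold higher in P4 (1.89 to 2.51). The ratio was 5.31 (3.84 to 7.51) at 1500 to 4500 UMIs. In E16 the level was 2036, 1665, 4767 and 11532 CPM over the 4 depth bands from shallow to deep, and in P4 8764, 15187, 19372 and 17986 CPM. P4 was the higher library in each band. Gpx1, glutathione peroxidase, had 265 and 440 UMIs, a ratio of 1.40 (1.20 to 1.63), which was 4.80 (3.16 to 7.62) at 1500 to 4500 UMIs. Its levels in E16 were 7736, 1480, 2460 and 11328 CPM and in P4 2191, 6056, 11799 and 16896 CPM, so in the shallowest band E16 was higher. Car2, a carbonic anhydrase, had 64 and 142 UMIs, a ratio of 1.87 (1.38 to 2.55), and 3 and 90 UMIs at 1500 to 4500 UMIs, a ratio of 12.3 (4.09 to 61.0). In the other barcodes Car2 was 7.55-fold higher in P4, but at 10.4 and 78.8 CPM. Blvrb, biliverdin reductase B, had 118 and 88 UMIs, 1.60-fold higher in E16 (1.20 to 2.13). Of 20 genes 8 could be compared, with 1 higher in P4 and 1 in E16. The median log2 ratio was -0.19, while the sum was 1.31-fold higher in P4 (1.22 to 1.40). At 1500 to 4500 UMIs the median was 2.26, over the genes that still had 30 UMIs, a set that can differ from the 8. The sum of the whole list was 1.92-fold higher in P4 in that range (1.69 to 2.18).

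The genes of late maturation and protein and organelle clearance had more members called higher in P4 than in E16. Of 31 genes 14 could be compared, with 4 called higher in P4 and 1 in E16, against 13.1% and 11.4% of all genes. The median log2 ratio was 0.37. Their summed level was 80119 CPM in E16 and 104724 CPM in P4. In the other barcodes the list was also higher in P4, at 5650 and 7500 CPM, and members stood 14.2-fold and 14.0-fold above them. Ubb, a polyubiquitin gene, had 250 and 614 UMIs, 2.06-fold higher in P4 (1.78 to 2.40). Ube2l6, an enzyme that conjugates the ubiquitin-like protein ISG15 (chr2:84798828-84810335), had 67 and 214 UMIs, 2.68-fold higher (2.03 to 3.59). Isg20, an RNA exonuclease known as interferon-induced (chr7:78913424-78920396), had 29 UMIs in 22 E16 members and 112 UMIs in 81 P4 members, 3.25-fold higher (2.14 to 5.07). Riok3, a kinase needed for enucleation of erythroblasts, had 28 and 75 UMIs, 2.25-fold higher (1.44 to 3.61). Of the 75, 16 were in 1 barcode, and without the leading barcodes its ratio was 1.88. These 4 genes were higher in P4 at 1500 to 4500 UMIs too, by 2.47, 2.57, 4.52 and 2.35-fold. Mkrn1 and Bnip3l had ratios of 1.22 (1.11 to 1.34) and 1.26 (1.08 to 1.48). Fam46c, the member higher in E16, had 38 of its 75 E16 UMIs in 1 barcode, and without the leading barcodes its E16 over P4 ratio went from 2.18 to 1.17. Its P4 over E16 ratio was 1.27 (0.609 to 2.91) at 1500 to 4500 UMIs.

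**Figure D5:**
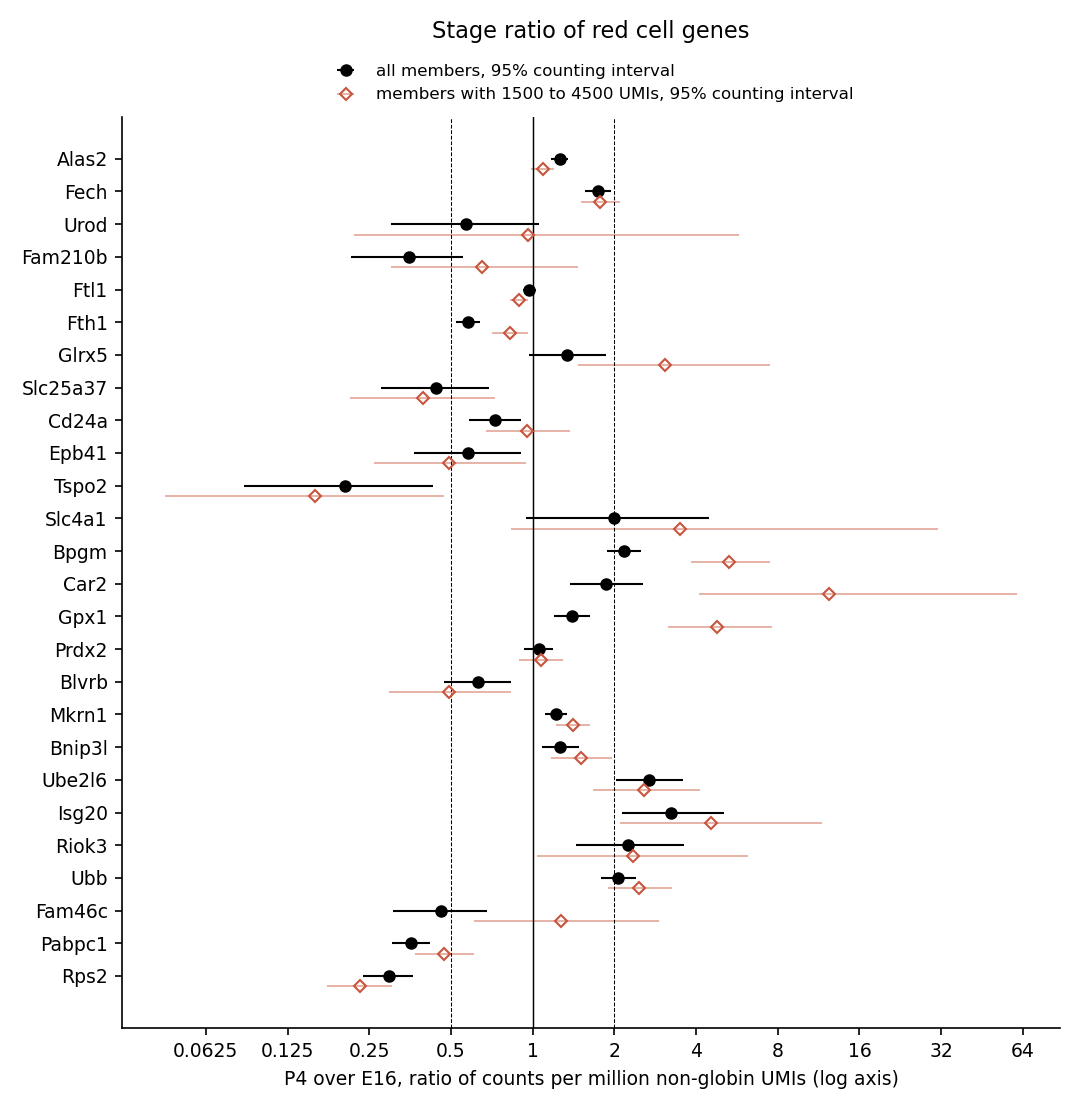
Ratio of P4 over E16 for 26 genes of the lists described (horizontal log axis), with black points for all members and open diamonds for members with 1500 to 4500 UMIs, and bars for the exact 95% counting interval. Dashed lines mark 2-fold differences. Bpgm moved from 2.17 to 5.31 in that UMI range, while Fech, Ube2l6, Pabpc1 and Tspo2 kept their side.

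Outside these lists, 4 genes above the other barcodes were higher in P4 without resting on 1 barcode. Fam213a, a peroxiredoxin-like protein, had 13 UMIs (383 CPM) in E16 and 78 UMIs (1930 CPM) in P4, 5.04-fold higher in P4 (2.78 to 9.89). Hagh, an enzyme of methylglyoxal detoxification, had 18 and 74 UMIs, 3.46-fold higher (2.04 to 6.15). Dcaf12, a substrate receptor of a ubiquitin ligase, had 27 and 94 UMIs, 2.93-fold higher (1.89 to 4.67). Rsad2, an interferon-induced enzyme named here after its values were seen, had 10 and 37 UMIs, 3.11-fold higher (1.52 to 7.01). In the other barcodes the P4 over E16 ratios of Fam213a and Dcaf12 were 0.94 and 0.68.

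Several large P4 ratios came from 1 barcode each. Ccnb2, a mitotic cyclin, had 1 UMI in E16 and 34 in P4, and 29 of the 34 were in 1 P4 barcode. Without the leading barcodes its ratio went from 28.6 to 1.42. Rfk, riboflavin kinase, had 54 of 73 P4 UMIs in 1 barcode, and its ratio went from 4.09 to 1.21. Napa, a vesicle fusion protein, had 39 of 45 in 1 barcode, and its ratio went from 5.40 to 0.83. Tfdp2, a partner of E2F factors, had 40 of 61 in 1 barcode, and its ratio went from 3.42 to 1.35. Arpc5, a subunit of the Arp2/3 actin complex, had 31 of 45 in 1 barcode, and its ratio went from 5.40 to 1.94. In E16, Gabarap, an autophagy protein, had 39 of 69 UMIs in 1 barcode, and its E16 over P4 ratio went from 3.04 to 1.39. At 1500 to 4500 UMIs its P4 over E16 ratio was 1.23 (0.505 to 3.44). Among genes with at least 30 UMIs, 4 of 136 in E16 and 11 of 180 in P4 had at least 50% of their UMIs in 1 barcode, and no barcode led more than 1 of these genes in its library.

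The summed level of translation genes was higher in E16. Pabpc1, the poly(A) binding protein (chr15:36595661-36609668), had 497 UMIs (14634 CPM) in 120 E16 members and 211 UMIs (5221 CPM) in 104 P4 members, 2.80-fold higher in E16 (2.38 to 3.31). It was 2.12-fold higher at 1500 to 4500 UMIs, and 1.55-fold higher in E16 in the other barcodes. Rps2, a protein of the small ribosomal subunit, had 345 and 121 UMIs, 3.39-fold higher in E16 (2.75 to 4.21), and 1.22-fold in the other barcodes. Eif1, a factor for start codon choice, had 236 and 149 UMIs, 1.88-fold higher in E16 (1.53 to 2.33). Of 55 ribosomal protein genes compared, 4 were called higher in P4 and 6 in E16, against 13.1% and 11.4% of all genes. Of the 4, Rps27 had 23 of its 36 P4 UMIs in 1 barcode. Their median log2 ratio was -0.42, and their sum in P4 was 0.710 of that in E16 (0.676 to 0.746). The same genes had a median of -0.21 in the other barcodes. Rpl41, the ribosomal protein gene with the most UMIs in members, was named after its values were seen. It had 725 UMIs (21347 CPM) in E16 and 534 UMIs (13214 CPM) in P4, and these levels were 2.91-fold and 2.29-fold above the other barcodes, unlike the list as a sum. Of 14 translation factors compared, 0 were higher in P4 and 3 in E16, with a median of -0.25. Among the 3, Gnb2l1, a scaffold protein of the ribosome, had 33 of its 39 E16 UMIs in 1 barcode. The median of the 14 was similar in the other barcodes, at -0.20. The sum of the whole list in P4 members was 0.635 of that in E16 members (0.587 to 0.686). In the other barcodes that sum was also higher in E16, at 26460 against 22092 CPM. Gm42418 and Gm26917, gene models that contain ribosomal RNA repeat sequence and fall outside the naming rule, had 234 and 102 UMIs in E16 and 132 and 43 in P4. They stood 22.2 and 19.3-fold above the other barcodes in E16 and 9.32 and 19.1-fold in P4.

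Further genes above the other barcodes were higher in E16. Ube2e3, a ubiquitin-conjugating enzyme, had 88 and 43 UMIs, 2.43-fold higher in E16 (1.67 to 3.59), with 31 of the 88 in 1 barcode and 1.70-fold without the leading barcodes. Hebp1, a haem-binding protein, had 46 and 25 UMIs, 2.19-fold higher (1.32 to 3.72), but 1.13-fold at 1500 to 4500 UMIs. Sec61g, a subunit of the channel that takes proteins into the endoplasmic reticulum, had 60 and 34 UMIs, 2.10-fold higher (1.36 to 3.30).

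Genes of the respiratory chain, which mitochondria need, were below the other barcodes as a sum, at 0.819 of their level in E16 and 0.768 in P4. Of 17 compared, 0 were higher in P4 and 4 in E16, against 13.1% and 11.4% of all genes. The 4 had few UMIs in E16 and P4: Cox6b1 24 and 10, Cox8a 52 and 25, Cox7b 31 and 17, Atp5e 19 and 11. The median log2 ratio was -0.20 in members and -0.27 in the other barcodes. At 1500 to 4500 UMIs the members' median was 0.06.

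Members with at least 200 detected genes differed in makeup from the rest. In E16 the 25 such members had a median of 6700 UMIs and the other 178 a median of 2771.5. Of 136 genes, 25 were at least 2-fold higher in the members with many genes and 5 in the rest. In P4 these counts were 17 and 27 of 180. In E16 the ratio was 6.04 for Car2, 4.91 for Gpx1 and 2.39 for Bpgm. In P4 it was 2.80, 2.15 and 0.90. Alas2 went the other way, with ratios of 0.81 and 0.49. The 12 P4 members with many genes held 6225 non-globin UMIs, and the barcodes with 741 and 491 genes gave 1175 and 1142 of these. Those barcodes also had the lowest globin shares of the P4 members, 81.6% and 87.9%. As a sum, the members kept by such a filter in these libraries thus had more Car2 and Gpx1 and less Alas2 than those removed. The P4 ratios without those barcodes were not computed.

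Transcripts of other cell types were also found in red cell barcodes. The 15 secretory genes of the gland had 2 UMIs in E16 members and 598 in P4 members, or 58.9 and 14798 CPM, against 151 and 99917 CPM in the other barcodes. A secretory UMI was found in 2 of 203 E16 and 244 of 293 P4 members. Dcpp1 and Smgc, secreted gland proteins, had 0 UMIs in E16 members and 171 and 129 in P4 members. With the 0 set to 3 counts over the E16 members, the P4 over E16 ratios were 47.9 and 36.1. In P4, the level in members over that in other barcodes was 0.109 for Dcpp1 and 0.519 for Smgc. Dcpp genes are near-identical copies and their counts may be shared. The 14 mesenchyme genes had 233 and 579 UMIs, 0.504 and 0.536 of the level in the other barcodes. Col3a1, a fibrillar collagen, was 3.70-fold higher in P4 members (2.42 to 5.85) and 2.73-fold higher in the other barcodes. The 11 macrophage genes had 8 and 46 UMIs, 0.408 and 0.363 of that level, and 5 of the 11 had a UMI in E16 members and 10 in P4 members, with Fcer1g at 0 in both. Of the 40 genes higher in P4 members, 5 were secretory and 4 mesenchyme list genes. The 8 other lists (epithelial, granulocyte, lymphoid, endothelial, platelet, mast, glial and contractile) summed to between 29.4 and 795 CPM each in E16 members and between 0 and 1213 CPM in P4 members. Of these, 8 of 14 epithelial genes, 4 of 8 mast genes and 5 and 6 of 8 contractile genes had a UMI in each library, while Krt5, Krt15, Wfdc2 and Cldn6 of the epithelial list had 0 in both. Of the granulocyte genes 1 of 9 had a UMI in E16 members and 0 in P4, and of the platelet genes 2 of 10 in each. The part of these transcripts in any stage ratio above was not tested.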

How the data were processed

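The deposited matrices give raw UMI counts for each gene in each barcode, with no normalization by the authors. Cell Ranger and the mm10 build were used, per the submitters' processing notes. Neither the labels nor the notes state its version, the annotation, how reads with several matches were treated or how barcodes were selected. All 437 and 687 deposited barcodes were used (2234700 and 2712614 UMIs), with no filter and no doublet caller. All 13 mitochondrial features were at 0 in each library.

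Counts of member barcodes were summed per library and divided by the non-globin UMIs (CPM, per 1000000). UMIs count molecules, so levels were not divided by length. Ratios carry exact conditional 95% intervals, and shares exact Clopper-Pearson 95% intervals. A count of 0 was set to 3 counts over the members of a library when a fold was formed. A gene was compared between stages with at least 30 UMIs over both libraries and called at 2-fold. It was called above the other barcodes at 3-fold with at least 30 UMIs in members. With 1 library per stage no test was run. The interval method was tested on simulated data that gave each gene 1 independent Poisson count per library. The simulation had no barcodes, so it did not test the intervals of genes whose UMIs pile up in 1 barcode.

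Named genes were first, among genes above the other barcodes, the 12 in each direction whose ratio bound nearest 1 lay farthest from 1. The 12 with the highest level in each library, up to 6 of each list, the globins and the markers were also named. Ribosomal protein genes entered only through their list, and provisional gene models were left out. A few genes that meet this rule are not reported here. Members and lists were chosen with earlier results of these data known. The alternatives were other globin thresholds (30%, 80%, 90%), members under 200 genes, leaving out the 10 deepest members, other denominators, equal weights and other UMI minimums. Leaving out each gene's leading barcode and keeping 1500 to 4500 UMIs were added after seeing the data. Gene coordinates are from GENCODE M21 (GRCm38), promoter sequences from RefSeq (GRCm38.p6, 63 of the 92 genes above the other barcodes matched). Python 3.11.15, numpy 2.4.6, scipy 1.17.1, pandas 2.3.3 and matplotlib 3.10.9 were used.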

Additional observations from a re-analysis of the deposited data

Results flagged for a closer look

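For 2 of the genes named by the rule, red cell barcodes were above the other barcodes in E16 and below them in P4. Genes not named by the rule were not screened for this. Rps2 had a red cell level 1.78 times that of the other barcodes in E16 and 0.64 times in P4. Gnb2l1, which encodes RACK1 of the small ribosomal subunit, had 1.63 times in E16 and 0.27 times in P4. Of the 39 Gnb2l1 UMIs in E16 members, 33 came from 1 barcode, and without the leading barcodes 6 and 5 UMIs were left. With 1 library per stage the difference between stages was not tested in either case.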

How the results depend on the processing

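No paired analysis was possible because each stage is 1 library. At 90% globin the log2 ratio of Ccnb2 was 1.79 (4.84 as reported) and that of Rps27 1.17 (2.33). The leading P4 barcodes of Ccnb2 and Rps27 had 87.9% and 81.6% globin, so this threshold left them out. The haem and iron medians at 90% globin were -0.45 and -0.29. The genes higher in E16 numbered 35 as reported, 22 among members under 200 genes and 16 at 1500 to 4500 UMIs. The counts in P4 and E16, 40 and 35 as reported, were 11 and 8 with at least 100 UMIs and 127 and 127 with at least 10. The haem synthesis median was 0.36 under 200 genes. The gas and oxidant median was 0.48 with at least 100 UMIs and 2.26 at 1500 to 4500 UMIs, and the maturation median 0.83 there. The genes above the other E16 barcodes numbered 44 under 200 genes. Of barcodes with at least 200 genes, 9.65% (E16) and 2.96% (P4) were red cells. The non-globin share was 4.34% and 4.64% under 200 genes, and 4.68% and 4.72% without the 10 deepest members. The Hbb-bt share was 15.3% and 9.21% under 200 genes, 15.8% and 9.29% without the 10 deepest, and 14.4% and 9.34% at 1500 to 4500 UMIs.

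Some log2 ratios whose interval excluded equal levels turned. Ccnb2 had -0.18 under 200 genes. At 1500 to 4500 UMIs they were 0.35 (Fam46c), -1.28 (Ccnb2) and 0.30 (Gabarap). Napa had -0.26 without its leading barcode. The leading P4 barcode of Ccnb2 had 9433 UMIs and 491 genes, so both of these settings left it out. The leading E16 barcodes of Fam46c and Gabarap had 6475 and 6022 UMIs, so keeping 1500 to 4500 UMIs left them out. The cause was not tested. Under the alternatives, 34 of 935 gene ratios had the other sign, 5 of them in genes whose reported interval excluded equal levels, and 868 lay within the reported interval. Of 135 list medians 15 had the other sign. The membrane list under some settings, and the haem list with at least 100 UMIs, had too few genes for a median. About 30 UMIs over both libraries is the least at which a 2-fold difference was read.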

Other observations

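The globin UMIs found in the other barcodes did not have the composition of the red cell barcodes. Alpha chains made up 28.3% of them in E16 (27.0 to 29.6) and 22.9% in P4 (21.6 to 24.2), against 45.2% and 46.1% in members. Hbb-bt made up 13.6% of their adult beta UMIs in E16 (12.4 to 14.8) and 3.33% in P4 (2.73 to 4.02), against 16.3% and 9.63%. A single E16 barcode with 9.38% globin gave part of these counts, and without it alpha chains made up 21.7% and Hbb-bt 12.1%. Globin UMIs were present in 233 of 234 and 393 of 394 of the other barcodes, at 0.302% and 0.210% of their UMIs.

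The genes with most of their UMIs in 1 red cell barcode made up from 1.96% (Rps27) and 2.54% (Ccnb2) to 33.6% (Edf1) of the non-globin UMIs of that barcode in P4. In P4, Edf1, a transcription coactivator, had 38 of its 45 UMIs in a barcode with 113 non-globin UMIs, and the next member had 1. Rfk made up 30.9% and Hbq1a 30.1% of the non-globin UMIs of their leading barcodes. Rps24, a protein of the small ribosomal subunit, had 59 of 83 UMIs in 1 P4 barcode. Uqcrh, a subunit of respiratory complex III, had such a barcode in both libraries, with 47 of 73 UMIs in E16 and 61 of 81 in P4. Edf1, Rps24 and Uqcrh were named after their values were seen.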
